A study of Mus musculus with 6 samples.

Results

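The early growth response genes Egr1, Egr2 and Egr3 and the nuclear receptor genes Nr4a1, Nr4a2 and Nr4a3 encode transcription factors. They were followed in mouse cumulus-oocyte complexes, which are oocytes with the cumulus granulosa cells that surround them. The 6 genes were represented by the probe sets whose only gene symbol in the platform annotation was 1 of theirs, 15 of 45037 non-control probe sets. They are 6 of the 18193 genes that the array measures by at least 1 such probe set. Egr1 and Nr4a1 had 1 probe set each, Egr2 and Egr3 had 2 each, Nr4a3 had 3 and Nr4a2 had 6. By RefSeq, Egr1 lies on chromosome 18, Egr2 on 10, Egr3 on 14, Nr4a1 on 15, Nr4a2 on 2 and Nr4a3 on 4.

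All complexes came from immature wild-type females given equine chorionic gonadotropin (eCG) for 48 h, which makes follicles grow. The groups were complexes with no hCG, complexes 8 h after human chorionic gonadotropin (hCG, which acts like the luteinizing hormone surge and triggers ovulation) and complexes 16 h after hCG. Each group had 2 arrays, and each array held the RNA of pooled complexes. The labels do not say that the 2 arrays of a group came from separate animals or collections, so p-values measure the spread between these samples, which may be technical. Per the labels, complexes without hCG were taken from ovaries and those of both hCG times from the oviduct. If the labels hold, hormone and collection site cannot be told apart. Ovgp1, an oviduct glycoprotein gene, had a mean log2 intensity of 7.88 at 8 h. Its mean was 11.73 at 16 h and 8.74 in the group with no hCG. Whether the 8 h complexes had reached the oviduct was not tested. The labels also call the complexes without hCG expanded, although expansion normally follows the surge.

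Both families are known as immediate-early genes, which cells transcribe soon after a signal without first making new protein. Egr proteins bind GC-rich DNA through zinc fingers and are induced mainly through serum response factor (SRF) and its partners after ERK signalling. Their activity is held down by the corepressors Nab1 and Nab2. Nr4a proteins are orphan nuclear receptors that need no known hormone ligand, so their activity follows largely from how much is made, and CREB and MEF2 factors drive their transcription. In the ovary, the luteinizing hormone surge is known to induce members of both families in granulosa cells, and Nr4a1 is known as a regulator of steroid-producing enzymes. No time between the complexes without hCG and 8 h was sampled on these arrays.

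Values are log2 intensities as deposited, so a difference of 1 is 2-fold. A probe set's level cannot be set against another probe set's. Array medians lay between 6.14 and 6.27. A probe set was called dim, and left untested, where its mean log2 intensity was below 5.62, the 40th percentile of the array. Of the 15 probe sets, 12 passed this filter. The others were 2 of Nr4a2 (1433423_at and 1450750_a_at) and 1 of Nr4a3 (1421079_at). Signal over background is unknown, so the size of a change from a low level is uncertain. Changes are given ± SE of a limma fit to all 6 arrays (n = 2 per group). A change was called at a Benjamini-Hochberg adjusted p under 0.05 over 27022 probe sets, and all adjusted p-values below come from that fit. The 3 comparisons share arrays.

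The labelled tissue was checked against marker genes. Of 10 cumulus and granulosa markers, none was dim. At 8 h against no hCG 4 of them rose and 3 fell, and at 16 h against no hCG 4 rose and 5 fell. Those that fell included the granulosa transcription factor gene Foxl2 (−1.89 ± 0.20 at 8 h), the inhibin subunit gene Inhba (−1.86 ± 0.21 at 8 h, called for 1 of 2 tested probe sets) and the FSH receptor gene Fshr (−3.54 ± 0.15 at 16 h against no hCG). The inhibin gene Inha averaged 14.27 without hCG, 14.40 at 8 h and 13.57 at 16 h. Has2, a hyaluronan synthase gene that marks cumulus expansion, averaged 8.96 at 8 h and 5.72 without hCG. All of the 10 oocyte markers fell at 8 h against no hCG, with a median log2 change of −2.36. Over all 13559 tested genes, by 1 probe set each, 16.9% rose and 20.5% fell at 8 h. At 16 h against no hCG that share was 20.8% each way. In RNA of pooled complexes, fewer cells of a type and less RNA per cell cannot be told apart.

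RefSeq promoter windows (build GRCm38.p6) run from 250 bases before a start site to 50 after it. Windows of 4 of the 6 genes, all but Egr1 and Egr3, are shown to locate motifs through which these genes are known to be induced. Motifs in the Egr1 and Egr3 promoters are not reported here, so these 2 genes cannot be set against the other 4. They are printed 5′ to 3′ in the direction of transcription: Egr2 at chr10:67537619-67537918 (plus strand), Nr4a1 at chr15:101266596-101266895 (plus strand), Nr4a2 at chr2:57123954-57124253 (minus strand) and Nr4a3 at chr4:48045055-48045354 (plus strand). Capitals mark the motifs found, read on both strands.
Egr2: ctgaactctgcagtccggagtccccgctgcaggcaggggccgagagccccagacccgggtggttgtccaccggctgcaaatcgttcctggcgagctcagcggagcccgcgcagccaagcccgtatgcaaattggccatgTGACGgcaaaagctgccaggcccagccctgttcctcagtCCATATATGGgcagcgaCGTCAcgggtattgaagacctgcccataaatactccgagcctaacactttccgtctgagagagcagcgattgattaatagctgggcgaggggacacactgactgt
Nr4a1: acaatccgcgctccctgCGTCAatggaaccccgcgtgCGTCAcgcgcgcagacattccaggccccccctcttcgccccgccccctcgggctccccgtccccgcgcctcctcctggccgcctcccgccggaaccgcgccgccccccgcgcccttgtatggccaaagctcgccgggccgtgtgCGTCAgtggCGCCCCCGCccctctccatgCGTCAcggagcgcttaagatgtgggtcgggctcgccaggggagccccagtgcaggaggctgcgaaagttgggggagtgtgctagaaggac
Nr4a2: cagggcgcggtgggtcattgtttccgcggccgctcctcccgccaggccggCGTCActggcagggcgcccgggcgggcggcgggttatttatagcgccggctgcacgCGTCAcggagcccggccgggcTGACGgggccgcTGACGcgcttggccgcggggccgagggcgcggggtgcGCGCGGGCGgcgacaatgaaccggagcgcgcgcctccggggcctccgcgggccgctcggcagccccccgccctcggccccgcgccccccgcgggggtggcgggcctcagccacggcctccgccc
Nr4a3: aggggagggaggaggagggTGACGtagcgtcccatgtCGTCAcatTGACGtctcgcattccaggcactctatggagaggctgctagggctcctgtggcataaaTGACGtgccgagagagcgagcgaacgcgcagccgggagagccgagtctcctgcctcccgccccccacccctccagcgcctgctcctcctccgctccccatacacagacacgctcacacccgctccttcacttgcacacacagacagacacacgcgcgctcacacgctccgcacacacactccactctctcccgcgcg

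The motifs searched were the CArG box bound by SRF, the full cAMP response element TGACGTCA bound by CREB, its half-site TGACG, the Egr site GCGNGGGCG and the Nr4a site AAAGGTCA. A full element contains a half-site on each strand, so these overlap. Nr4a1, Nr4a2 and Nr4a3 each held 4 half-sites in their window, and Egr2 held 2. A half-site was present in 20.8% of 32851 mouse promoter windows. The Egr2 window shown also held a CArG box 72 to 63 bases before its start site, a motif present in 1.63% of windows. Of 5 Egr2 windows, 3 overlap and share this CArG box and both half-sites, and 1 of these was chosen for printing. Of the remaining Egr2 windows, 1 held a different CArG box and no half-site, and 1 held none of the motifs. Nr4a1 and Nr4a2 each held 1 Egr site, present in 5.55% of windows, at 60 to 52 and 74 to 66 bases before the start site. The full element and the Nr4a site were not among the letters of the windows shown, and were present in 1.79% and 1.51% of all windows. A match describes letters only and does not show binding.

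**Figure D1:**
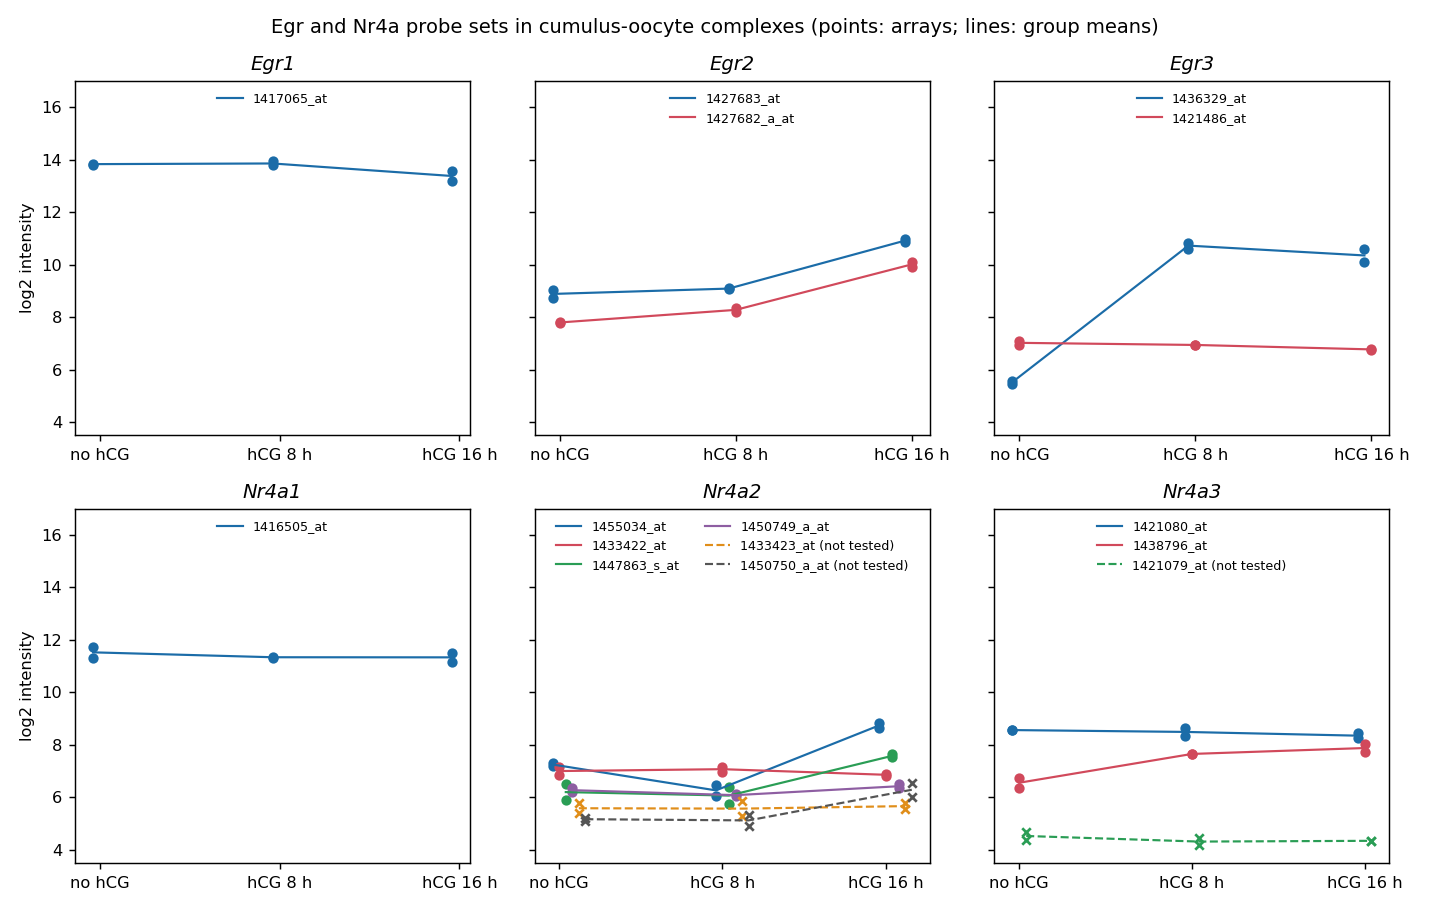
Log2 intensity (vertical axis) of every Egr and Nr4a probe set in the 3 groups (horizontal axis), with a point for each array and a line through the group means; crosses and dashed lines are the 3 dim, untested probe sets. Egr3 1436329_at is near 5.5 without hCG and above 10 at both hCG times, and Egr2 and Nr4a2 1455034_at are highest at 16 h.

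Egr3 had the largest change among the probe sets of the 6 genes. Its probe set 1436329_at read 5.46 and 5.59 without hCG, 10.61 and 10.84 at 8 h, and 10.10 and 10.60 at 16 h. Both hCG groups lay far above the group without hCG and did not overlap it, and the 16 h arrays lay just under those of 8 h. The rise at 8 h was 5.20 ± 0.19, or 36.8-fold (adjusted p = 2.82e-07), and ranked 22 of 27022 tested probe sets from the highest rise down. At 16 h the level was 4.83 ± 0.19 above no hCG (28.4-fold, adjusted p = 3.01e-07). Between 8 h and 16 h no change was called (−0.37 ± 0.19, 95% interval −0.81 to 0.06, adjusted p = 0.243). The mean without hCG, 5.52, was under the limit for dim probe sets, so this probe set passed the filter through the hCG groups and its fold change is uncertain in size.

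The other Egr3 probe set, 1421486_at, did not follow this course. It read 7.09 and 6.95 without hCG, 6.95 and 6.93 at 8 h, and 6.75 and 6.79 at 16 h. Its change at 8 h was −0.08 ± 0.15 (95% interval −0.42 to 0.25, adjusted p = 0.745), and no comparison was called. Over the 6 arrays the Egr3 probe sets had a Pearson r of −0.65. The Egr3 rise therefore rests on 1 of 2 probe sets. With the mean of both probe sets as 1 value for the gene, the change at 8 h was 2.56 (adjusted p = 3.33e-06).

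Egr2, known for its roles in myelination and in lymphocytes and macrophages, rose late. Its probe set 1427683_at read 9.05 and 8.72 without hCG, 9.07 and 9.11 at 8 h, and 10.87 and 10.96 at 16 h. The 16 h arrays stood above all of the other 4. The other probe set, 1427682_a_at, read 7.77 and 7.82 without hCG, 8.21 and 8.35 at 8 h, and 9.92 and 10.11 at 16 h. Both probe sets followed the same course, with a Pearson r of 0.985 over the 6 arrays.

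Against 8 h, the 16 h level of Egr2 was 1.83 ± 0.16 higher by 1427683_at (3.55-fold, adjusted p = 7.93e-05). By 1427682_a_at the difference was 1.73 ± 0.16 (3.33-fold, adjusted p = 7.63e-05). Against no hCG, the rises at 16 h were 2.03 ± 0.16 and 2.21 ± 0.16 (adjusted p = 1.1e-05 and 4.38e-06). At 8 h, 1427682_a_at rose by 0.48 ± 0.16 (adjusted p = 0.0386), whereas 1427683_at was not called (0.20 ± 0.16, 95% interval −0.17 to 0.57, adjusted p = 0.403). The small early call did not hold when either array of the 8 h group or of the group without hCG was left out. Its adjusted p was then 0.106 and 0.242 without replicate 1 and 2 at 8 h, and 0.0943 and 0.0593 without replicate 1 and 2 of the group without hCG.

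Egr1, the best-known member of its family and a regulator of pituitary luteinizing hormone, was called in no comparison. Its probe set 1417065_at read 13.82 and 13.85 without hCG, 13.78 and 13.93 at 8 h, and 13.19 and 13.57 at 16 h. The 16 h arrays were the lowest and did not overlap either of the other groups. The differences were 0.03 ± 0.17 for 8 h against no hCG (95% interval −0.36 to 0.41, adjusted p = 0.934), −0.48 ± 0.17 for 16 h against 8 h (−0.86 to −0.09, adjusted p = 0.0892) and −0.45 ± 0.17 for 16 h against no hCG (−0.84 to −0.07, adjusted p = 0.066). The last 2 differences were called after quantile normalization, at −0.54 and −0.59 (adjusted p = 0.0379 and 0.0145), and with an intensity trend in the prior (adjusted p = 0.0324 and 0.0228). The last one was also called without replicate 2 of the 16 h group (−0.64, adjusted p = 0.042).

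Nr4a2, which is essential for midbrain dopamine neurons, was lower at 8 h and higher at 16 h by its brightest probe set. That probe set, 1455034_at, read 7.32 and 7.18 without hCG, 6.47 and 6.06 at 8 h, and 8.84 and 8.64 at 16 h. The 3 groups did not overlap. At 8 h it fell by 0.98 ± 0.18 on the log2 scale (adjusted p = 0.00233). At 16 h it was 2.48 ± 0.18 higher than at 8 h (5.56-fold, adjusted p = 2.51e-05), which ranked 106 of 27022 from the highest rise down, and 1.49 ± 0.18 higher than without hCG (2.81-fold, adjusted p = 0.000156).

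The 5 other Nr4a2 probe sets did not all follow. Probe set 1447863_s_at, whose suffix means that its probes can also match other transcripts, read 6.5 and 5.9 without hCG, 6.38 and 5.75 at 8 h, and 7.52 and 7.64 at 16 h. It rose by 1.51 ± 0.25 from 8 h to 16 h (adjusted p = 0.0024), with no early fall called (−0.13 ± 0.25, 95% interval −0.69 to 0.43, adjusted p = 0.747). The dim probe set 1450750_a_at read 5.22 and 5.11 without hCG, 5.32 and 4.92 at 8 h, and 6.56 and 6.02 at 16 h, so its 16 h arrays were also the highest. With no filter on dim probe sets it was called at 16 h against 8 h (1.17 ± 0.21, adjusted p = 0.00744) and against no hCG (1.12 ± 0.21, adjusted p = 0.00412). Probe sets 1450749_a_at, 1433422_at and 1433423_at lay between 5.28 and 7.17 in all 6 arrays. The first 2 were called in no comparison. At 16 h against 8 h, 1450749_a_at had a difference of 0.34 ± 0.16 (95% interval −0.01 to 0.69, adjusted p = 0.181) and 1433422_at one of −0.21 ± 0.17 (−0.59 to 0.17, adjusted p = 0.481). The dim 1433423_at was not called without the filter either. The late rise was thus called for 2 of the 4 tested probe sets, and the early fall for 1 of 4. With the mean of the 4 tested probe sets as 1 value, the gene was 1.03 higher at 16 h than at 8 h (adjusted p = 0.00254), and its difference at 8 h was −0.31 and not called (adjusted p = 0.192).

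Nr4a3 differed between its probe sets. Probe set 1438796_at read 6.75 and 6.36 without hCG, 7.66 and 7.65 at 8 h, and 7.72 and 8.03 at 16 h. Both hCG groups lay above the group without hCG. It rose by 1.10 ± 0.19 at 8 h (2.14-fold, adjusted p = 0.00137) and was 1.32 ± 0.19 above no hCG at 16 h (2.5-fold, adjusted p = 0.000377). The brighter 1421080_at read 8.57 and 8.56 without hCG, 8.64 and 8.35 at 8 h, and 8.26 and 8.44 at 16 h. It was called in no comparison, with a difference of −0.07 ± 0.16 at 8 h (95% interval −0.44 to 0.30, adjusted p = 0.802). The dim 1421079_at stayed between 4.19 and 4.67. With the mean of both tested probe sets as 1 value, the change was 0.51 at 8 h (adjusted p = 0.0275) and 0.55 at 16 h against no hCG (adjusted p = 0.0179). The 2 tested Nr4a3 probe sets had a Pearson r of −0.49 over the 6 arrays.

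Nr4a1 (Nur77) was called in no comparison. Its probe set 1416505_at read 11.74 and 11.31 without hCG, 11.35 and 11.32 at 8 h, and 11.16 and 11.51 at 16 h. All 3 groups overlapped. The differences were −0.19 ± 0.19 for 8 h against no hCG (95% interval −0.62 to 0.25, adjusted p = 0.526), 0.00 ± 0.19 for 16 h against 8 h (−0.44 to 0.43, adjusted p = 0.993) and −0.19 ± 0.19 for 16 h against no hCG (−0.62 to 0.24, adjusted p = 0.495).

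**Figure D2:**
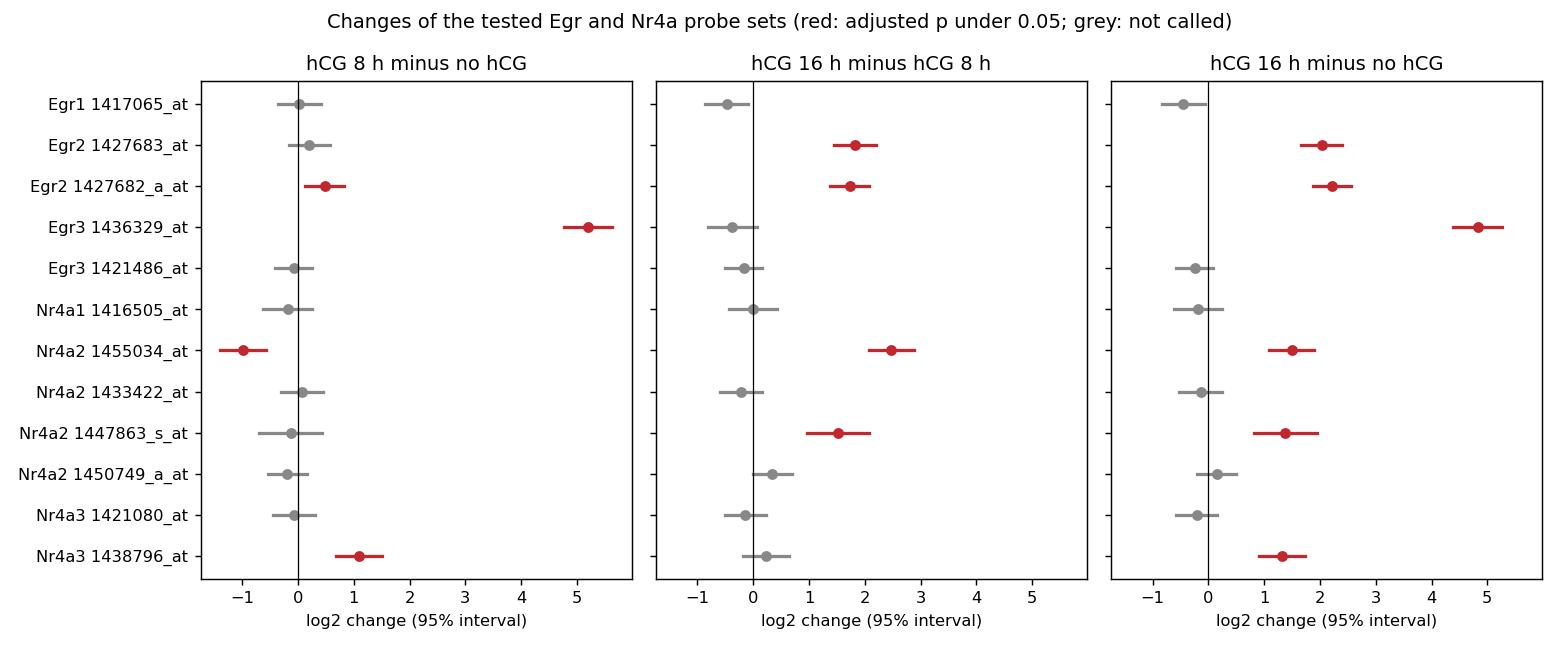
Log2 change with its 95% interval (horizontal axis) for the 12 tested probe sets (vertical axis) in the 3 comparisons; red marks an adjusted p under 0.05 and grey no call. Egr3 1436329_at stands near 5 at 8 h, Egr2 and 2 Nr4a2 probe sets lie between 1.5 and 2.5 at 16 h against 8 h, and Egr1 and Nr4a1 are grey throughout.

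Counted together, 3 of the 12 tested probe sets rose and 1 fell at 8 h against no hCG, that is 33.3% changed. Over all tested probe sets 33.9% were called, 16.4% upward and 17.5% downward, so the members' share was that of the array as a whole. From 8 h to 16 h, 4 rose and 0 fell, against 18.2% of all tested probe sets called, 9.76% upward and 8.45% downward. The 4 were both Egr2 probe sets and 2 of Nr4a2. At 16 h against no hCG, 6 rose and 0 fell, against 37.3% of all tested probe sets called, 19.0% upward and 18.3% downward. Arrays of the compared groups did not overlap for 6, 11 and 11 of the 15 probe sets in these comparisons, against 64.3%, 58.6% and 65.3% of all tested probe sets. The 15 include the 3 dim probe sets and the shares leave dim ones out, so these do not compare directly. The medians over the 12 were −0.02, 0.11 and 0.74 in these comparisons, and −0.01, 0.00 and −0.02 over all tested probe sets. Probe sets of 1 gene share their transcript, so the 12 are not independent. Differences between members in the size of their change were not tested.

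Among proteins that bind or restrain these factors, the corepressor genes rose. Nab2, itself known as an Egr target, read 7.64 and 7.5 without hCG, 9.40 and 9.25 at 8 h, and 9.29 and 9.15 at 16 h. It rose by 1.76 ± 0.16 at 8 h (adjusted p = 2.42e-05) and was 1.65 ± 0.16 above no hCG at 16 h (adjusted p = 2.88e-05). Nab1 read 9.74 and 9.99 without hCG, 11.44 and 11.53 at 8 h, and 11.90 and 12.01 at 16 h. It rose by 1.62 ± 0.16 at 8 h and stood 2.09 ± 0.16 above no hCG at 16 h (adjusted p = 4.33e-05 and 7.14e-06). For both genes, neither hCG group overlapped the group without hCG.

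The orphan receptor gene Nr0b1 (DAX1), which represses Nr4a1 and Nr5a1, fell at each step. It read 7.32 and 8.18 without hCG, 6.53 and 6.24 at 8 h, and 5.02 and 5.05 at 16 h. Its changes were −1.36 ± 0.25 at 8 h (adjusted p = 0.00246) and −1.35 ± 0.25 from 8 h to 16 h (adjusted p = 0.00521). Wt1, whose zinc fingers bind a site much like that of Egr proteins, fell from 8 h to 16 h (−1.31 ± 0.22, adjusted p = 0.00277). Nr5a1, which shares DNA targets with Nr4a proteins in steroid-producing cells, fell at 8 h (−0.65 ± 0.17, adjusted p = 0.0137). At 16 h against no hCG, Sp1, which binds GC-rich sites, rose by 0.63 (1 of 3 tested probe sets called), and Rxra, a dimer partner of Nr4a1 and Nr4a2, fell by 0.58 on the log2 scale (1 of 2). Egr4, the remaining Egr gene, read between 6.09 and 6.57 in all arrays and was called in no comparison. Of 11 tested genes of this list, 2 rose and 2 fell at 8 h, 0 rose and 2 fell from 8 h to 16 h, and 3 rose and 4 fell at 16 h against no hCG. The count from 8 h to 16 h was 1 without either 16 h array. The list medians were −0.16, 0.08 and −0.13, and those of 13559 genes by 1 probe set each were −0.02, 0.01 and −0.02. Of those 13559 genes, 37.4% were called at 8 h against no hCG (16.9% upward, 20.5% downward), 20.9% from 8 h to 16 h (11.8% upward, 9.12% downward) and 41.6% at 16 h against no hCG (20.8% each way).

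Of 25 tested genes that signal to Egr and Nr4a promoters, 6 rose and 4 fell at 8 h, 2 rose and 3 fell from 8 h to 16 h, and 6 rose and 4 fell at 16 h against no hCG. Over all 13559 genes, 37.4%, 20.9% and 41.6% were called in these comparisons. The medians of the list were 0.12, −0.12 and 0.10. The 10 calls at 8 h became 6 and 4 without replicate 1 and 2 of that group, and the 5 from 8 h to 16 h became 1 or 2 without any hCG array. Crem, which encodes CREB-family activators and the repressor ICER, had the largest rise. It read 5.95 and 6.04 without hCG, 8.89 and 8.85 at 8 h, and 8.12 and 7.96 at 16 h. The rise at 8 h was 2.87 ± 0.15 (adjusted p = 1.3e-06), and from 8 h to 16 h it fell by 0.83 ± 0.15 on the log2 scale (adjusted p = 0.00439), a fall called for 1 of its 2 tested probe sets. Prkar1a, a regulatory subunit of protein kinase A, rose by 1.04 ± 0.16 at 8 h, called for 1 of its 2 tested probe sets, and the coactivator gene Ep300 by 0.92 ± 0.20.

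Mef2c, 1 of the MEF2 factors, fell at 8 h (−1.91 ± 0.22, adjusted p = 0.000118). The kinase gene Rps6ka5 (MSK1), which phosphorylates CREB, fell by 0.89 ± 0.29 and the SRF coactivator gene Mrtfb by 0.52 ± 0.15 at 8 h, the second called for 1 of 3 tested probe sets. From 8 h to 16 h, Mef2d and the ERK kinase gene Map2k1 rose by 0.72 ± 0.15 (1 of 3 tested probe sets called) and 0.69 ± 0.15, and the protein kinase A subunit gene Prkar2b fell by 0.95 ± 0.20. Map2k1 had fallen at 8 h (−0.46 ± 0.15) and at 16 h was not called against no hCG (0.23 ± 0.15). Elk3, a partner of SRF, stood 1.17 ± 0.22 above no hCG at 16 h.

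Genes reported elsewhere as targets of these factors moved in both directions. The list mixes genes of many tissues and holds Ptgs2 and Cyp17a1, which are also on the marker lists. Of 18 tested, 8 rose and 5 fell at 8 h, 4 rose and 3 fell from 8 h to 16 h, and 9 rose and 3 fell at 16 h against no hCG. The 7 calls from 8 h to 16 h became 4 without either 16 h array or replicate 1 at 8 h, and 10 without either array of the group without hCG. Over all 13559 genes, 37.4%, 20.9% and 41.6% were called in these comparisons. The medians of the list were 0.25, 0.14 and 0.49. At 8 h the highest rises were those of Star, Ptgs2 and F3. F3, which encodes tissue factor and is a known Egr1 target, read 6.24 and 6.17 without hCG, 9.81 and 9.93 at 8 h, and 9.42 and 9.32 at 16 h. Its rise at 8 h was 3.67 ± 0.15 (adjusted p = 4.01e-07). Akr1c18, which inactivates progesterone and is a known Nr4a1 target in the rat corpus luteum, read 8.28 and 8.18 without hCG, 10.57 and 10.45 at 8 h, and 13.09 and 13.17 at 16 h. It rose by 2.62 ± 0.15 from 8 h to 16 h (adjusted p = 8.5e-06). Slc18a2, the vesicular monoamine transporter gene that Nr4a2 activates in dopamine neurons, read 9.79 and 10.48 without hCG, 6.11 and 6.08 at 8 h, and 4.96 and 5.13 at 16 h. It fell at 8 h (−4.04 ± 0.22) and again by 16 h (−1.05 ± 0.22).

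**Figure D3:**
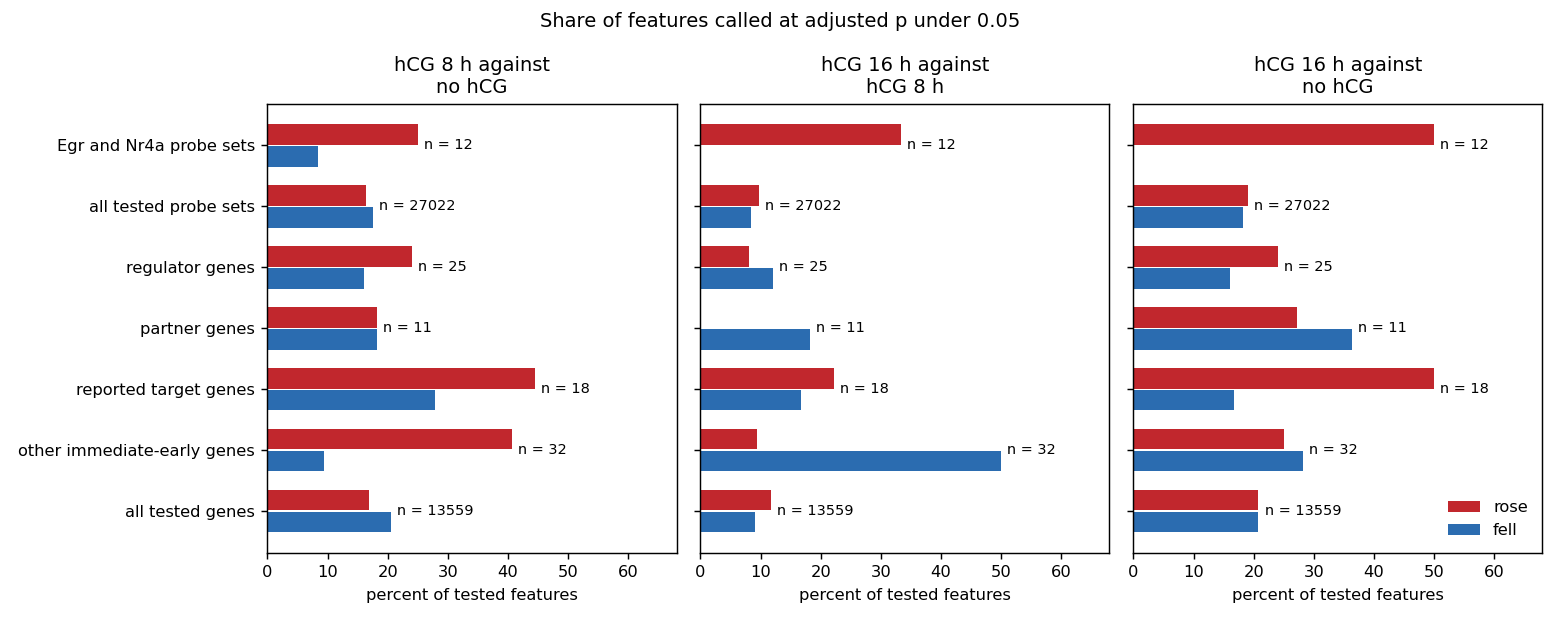
Percent of tested features that rose (red) or fell (blue) at an adjusted p under 0.05 (horizontal axis), for the Egr and Nr4a probe sets, the gene lists and all tested probe sets and genes (vertical axis), with the number tested beside each bar. From 8 h to 16 h, 4 of 12 Egr and Nr4a probe sets rose and 0 fell, whereas 16 of 32 other immediate-early genes fell and 3 rose.

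The other immediate-early genes gave a setting for the late rise of Egr2 and Nr4a2. Of 32 tested, 13 rose and 3 fell at 8 h, and 3 rose and 16 fell from 8 h to 16 h. The median change over that second interval was −0.70, and 0.01 over all genes. At 16 h against no hCG, 8 rose and 9 fell. Over all 13559 genes, 16.9% rose and 20.5% fell at 8 h, and 11.8% rose and 9.12% fell from 8 h to 16 h. At 16 h against no hCG that share was 20.8% each way. Within the list, the highest rises at 8 h were those of the EGF receptor inhibitor gene Errfi1 (3.21 ± 0.15), the AP-1 gene Fosl1 (3.03 ± 0.18) and the repressor gene Nfil3 (2.01 ± 0.17). The AP-1 genes Atf3 (−2.57 ± 0.33) and Fosb (−2.38 ± 0.23) and the Krüppel-like factor gene Klf4 (−1.89 ± 0.21) fell most from 8 h to 16 h. The 3 that rose over that interval were Myc (1.39 ± 0.17), Ier3 (0.90 ± 0.17) and Fosl2 (0.74 ± 0.16, called for 1 of its 2 tested probe sets). Whether Egr2 and Nr4a2 differed from this list was not tested.

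**Figure D4:**
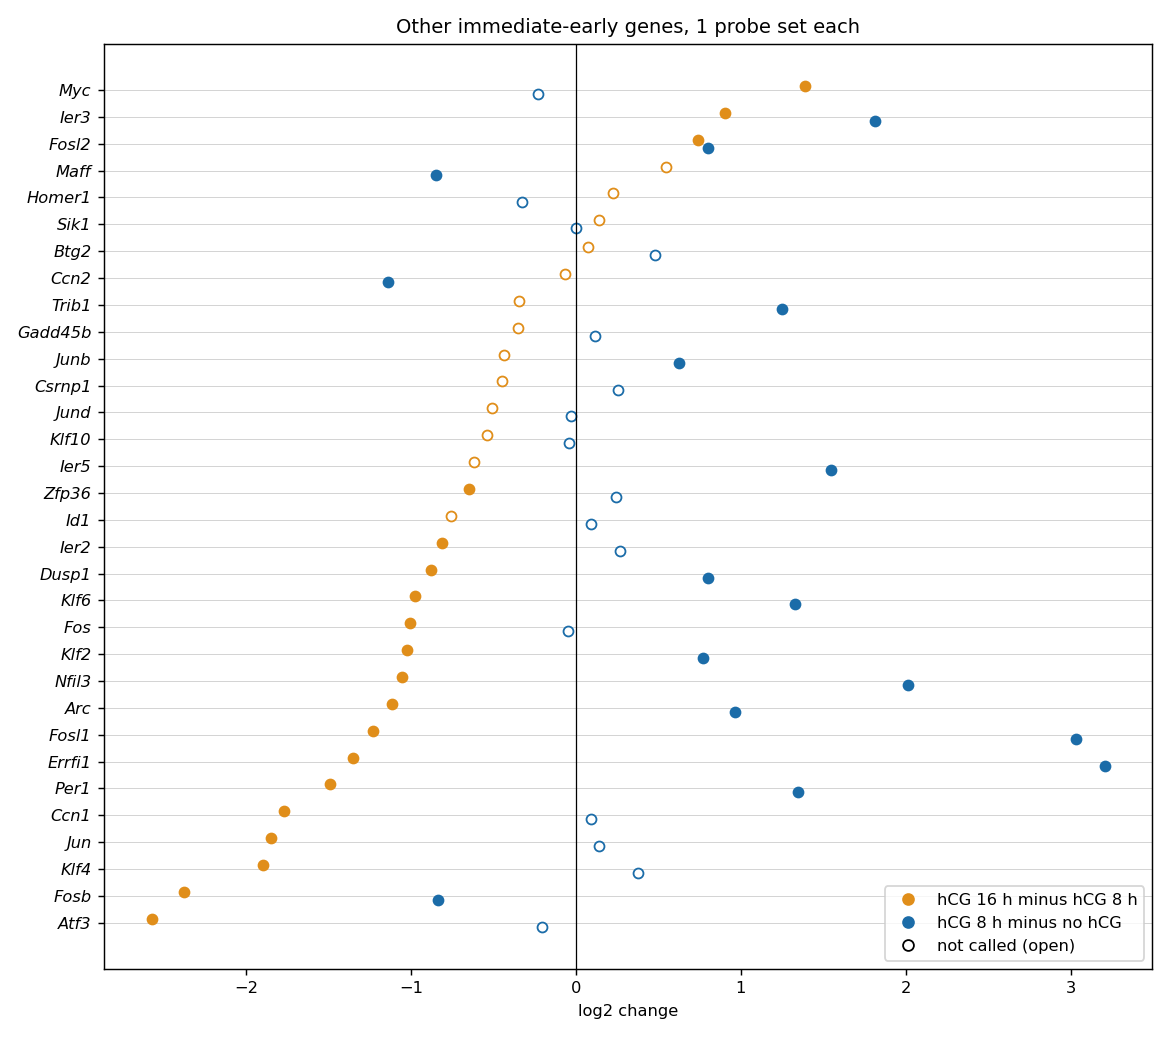
Log2 change (horizontal axis) of 32 other immediate-early genes (vertical axis, 1 probe set each, sorted by the later change); orange is 16 h minus 8 h, blue is 8 h minus no hCG, and open circles were not called. Most later changes lie left of 0, down to −2.57 for Atf3, and Myc lies farthest right at 1.39.

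Genes with the most similar course were named by Pearson's r over the 6 arrays, among 3676 genes whose group means spanned at least 1. This likeness rests on 3 groups of 2 arrays and is a description. Egr1 was most like the AP-1 gene Fos, with r = 0.98, and Jun was also among its closest 5. Fos read 14.07 and 14.16 without hCG, 14.01 and 14.13 at 8 h, and 12.80 and 13.33 at 16 h. Egr2 1427683_at was closest to F10, Tec, Slpi, Sdc3 and A2m (r between 0.996 and 0.999). Egr3 1436329_at was closest to Scd1, Msi2, Rnf125, H1f2 and Creb3 (r between 0.998 and 0.999). Nr4a2 1455034_at was closest to the angiogenic factor gene Vegfa (r = 0.994), the keratin gene Krt8, Rtn2, Slc27a3 and Fam214a. The closest genes of the flat Nr4a1 and Nr4a3 1421080_at reached only r = 0.79 and 0.85.

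Markers of other cells moved over the same interval as Egr2 and Nr4a2. Of 14 tested leukocyte markers, 12 rose and 0 fell from 8 h to 16 h, with a median of 1.85. Over all 13559 genes, 11.8% rose and 9.12% fell in that interval. The pan-leukocyte gene Ptprc averaged 7.81 at 16 h, 5.22 at 8 h and 5.14 without hCG. Ptprc and Coro1a both averaged under the limit for dim probe sets without hCG and at 8 h. Both passed the filter only through the 16 h group in which they rose, so the size of their rise is uncertain. The summed linear intensity of the 15 leukocyte markers, in units of 1000, was 4.5 and 4.34 without hCG, 3.98 and 3.76 at 8 h, and 9.2 and 9.27 at 16 h. Laptm5 made up most of the sum without hCG and at 8 h. The probe set used for Laptm5 was not called from 8 h to 16 h (−0.11 ± 0.18), although 2 of its 4 tested probe sets were. Of 3 tested oviduct epithelium markers, 2 rose over the same interval, the oviduct glycoprotein gene Ovgp1 and Cdh1. Cdh1 had fallen at 8 h (−1.79 ± 0.20) and at 16 h was not called against no hCG (−0.22 ± 0.20). Epcam was not called by its brightest probe set (0.15 ± 0.22), although 1 of its 2 tested probe sets was. The sum of all 6 was 4.78 and 3.72 at 16 h, mostly from Ovgp1, and 0.832 and 0.964 at 8 h in the same units. Ovgp1 averaged 11.73 at 16 h and 7.88 at 8 h, whereas the dim ciliated cell gene Foxj1 averaged 5.58 and 5.38. Other lists also moved from 8 h to 16 h. Of 10 oocyte markers 4 rose and 3 fell. Of 6 theca and stroma markers 0 rose and 3 fell, and of 10 cumulus and granulosa markers 2 rose and 4 fell. The oocyte genes that rose were Gdf9 (1.16), Oosp1 (1.19), Mos (1.17) and Bmp15 (1.33, called for 2 of 3 tested probe sets). These had fallen at 8 h, as had the brightest Nr4a2 probe set. At 16 h all 10 oocyte markers, unlike that probe set, were still below no hCG. The part of all these cells in the Egr2 and Nr4a2 values was not tested.

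At 8 h against no hCG, when Egr3 1436329_at rose, 1 of 14 leukocyte markers rose and 0 fell, and 0 of 3 oviduct epithelium markers rose and 1 fell. Over all 13559 genes, 16.9% rose and 20.5% fell at 8 h. The summed leukocyte markers, mostly Laptm5, were then no higher than without hCG. The mean log2 intensity of that list was 6.71 and 6.84 at 8 h and 6.58 and 6.84 without hCG. Of 2 tested endothelial markers 1 rose, Cdh5, which averaged 8.34 at 8 h and 5.48 without hCG, while the other 5 endothelial markers, Pecam1 and Tek among them, were dim. The Cdh5 mean without hCG was also under the limit for dim probe sets, so Cdh5 passed the filter through the hCG groups. The summed oocyte markers were 8.57 and 7.93 at 8 h and 42.1 and 36.2 without hCG in the same units. Of 6 markers of theca and stroma, 5 fell at 8 h and 0 rose, and the 1 tested erythrocyte marker, Alas2, was called in no comparison. The part of these shifts in the Egr and Nr4a values was not tested.

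**Figure D5:**
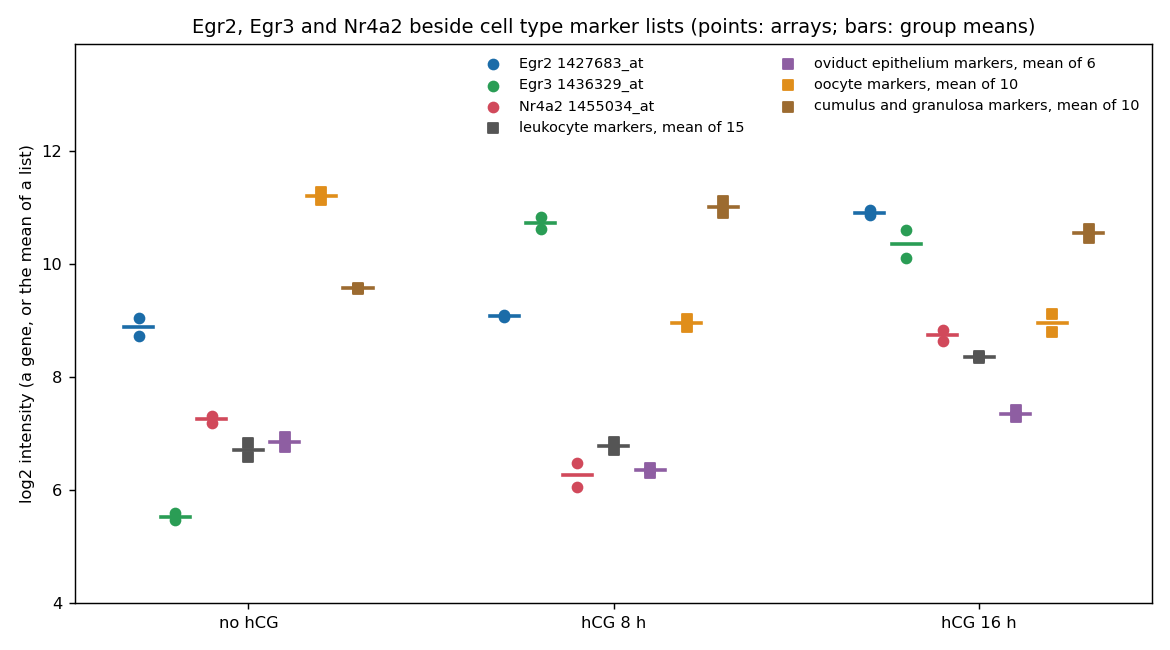
Log2 intensity (vertical axis) of Egr2, Egr3 and Nr4a2 (circles) and the mean of 4 marker lists (squares) in the 3 groups (horizontal axis), with a point for each array and a bar at the group mean. The means of the leukocyte and oviduct epithelium lists are highest at 16 h, as are Egr2 1427683_at and Nr4a2 1455034_at. From no hCG to 8 h, where Egr3 steps up, the mean of the cumulus and granulosa list also rises. Over that step the means of the oocyte and oviduct epithelium lists fall, and that of the leukocyte list changes little.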

How the data were processed

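RNA of 6 pools of cumulus-oocyte complexes was labelled with biotin and hybridised to 1 Affymetrix mouse array each, per the labels' protocols. The authors deposited 1 log2 intensity per probe set and array. The software, background correction and normalization behind it are not given in the sources used here, and only their range (3.32 to 15.53) shows the log2 scale. Values were used as deposited, since array medians differed by 0.125. Of 45101 probe sets, 64 controls were left out. The platform annotation gave 1 gene symbol for 34945 probe sets, several for 932 and none for 9160, and 0 symbols needed an update through RefSeq gene numbers.

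One limma 3.58.1 model covered the 3 groups (R 4.3.3, lmFit and eBayes, two-sided tests, 3 residual and 6.43 prior degrees of freedom), which was tested on simulated data. Lists used 1 probe set per gene, the tested one with the highest mean. All probe sets of the 6 genes were named. From each list, up to 3 called genes with the largest rise and 3 with the largest fall per comparison could be named, with family members. The 5 genes most alike were taken for each gene's brightest probe set. The members and lists were chosen with earlier results of these data known. Alternatives were other normalizations, filters, priors, array subsets and a replicate block. The number of arrays limits the precision, and depth does not apply.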

Additional observations from a re-analysis of the deposited data

How the results depend on the processing

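Of the 14 called changes of Egr and Nr4a probe sets, 13 kept their call and direction in every setting in which they were fitted, out of 14 settings. The exception was the rise of Egr2 1427682_a_at at 8 h, at 0.41 to 0.55 when 1 array was left out. Dim probe sets limit what can be read from Nr4a2 and Nr4a3. The replicate numbers may not pair the arrays: same-numbered deviations correlated at 0.38 between 8 h and no hCG, 0.11 between 16 h and 8 h and −0.06 between 16 h and no hCG. With a replicate block, 4, 4 and 7 Egr and Nr4a probe sets were called in the 3 comparisons (4, 4 and 6 without it), the added one being Egr1 at 16 h against no hCG (adjusted p = 0.0423). Over all probe sets, the block gave 10117, 5812 and 11045 calls.

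Some uncalled differences changed sign. For 8 h against no hCG, Egr1 was −0.044 after quantile normalization and −0.050 to 0.10 with 1 array left out. Over the arrays left out, Nr4a1 ran from −0.40 to 0.028, Nr4a2 1433422_at from −0.086 to 0.23, Nr4a2 1447863_s_at from −0.45 to 0.18 and Nr4a3 1421080_at from −0.22 to 0.075. For 16 h against 8 h, Nr4a1 was 0.014 after subtracting array medians and −0.18 to 0.17 with 1 array left out, and Nr4a3 1421080_at −0.29 to 0.0025. For 16 h against no hCG, Nr4a1 ran from −0.41 to 0.023 and Nr4a2 1433422_at from −0.30 to 0.014.

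Counts that moved by over 1.5 times did so mostly with 1 array left out, where the spread comes from the other groups. All probe sets called then numbered 6109 to 9450 at 8 h against no hCG and 2518 to 6340 at 16 h against 8 h. The 6109 was without replicate 2 at 8 h. Without replicate 1 or 2 at 8 h the second count was 2518 or 2819, and without replicate 1 or 2 at 16 h it was 2648 or 2784. Genes of the regulator list numbered 4 to 9 at 8 h against no hCG, with 6 and 4 without replicate 1 and 2 at 8 h. From 8 h to 16 h they numbered 1 to 6, with 1 or 2 when any hCG array was left out, and 3 with the mean of a gene's probe sets. The partner list gave 1 to 3 and the target list 4 to 10 over that interval, the lowest without either 16 h array, and for the target list also without replicate 1 at 8 h. The partner count was 1 when dim meant under the 60th percentile and 1 without probe sets that end in _x_at or _s_at. The cause was not tested.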
